A study of Mus musculus with 6 samples.

Results

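The Aurora kinases, the chromosomal passenger complex and the kinases and activators that work beside them were read out in mouse eggs carrying histone H3.3 in 1 of 3 fluorescent versions. The genes were chosen by symbol: Aurka, Aurkb, Aurkc, Incenp, Birc5, Cdca8, Tpx2 and Plk1. All 8 were found among the 24062 genes of the deposited table, and all 8 passed the expression filter that left 10667 genes to test.

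The eggs were ovulated metaphase II (MII) eggs of superovulated 8-week-old females. All females carried the multicolour transgene HISRainbow and Figla-iCre, a recombinase driven in oocytes by Figla, so the H3.3 group is itself transgenic. The groups were H3.3-eGFP (here H3.3), H3.3K27R-mCherry (lysine 27 replaced by arginine, here K27R) and H3.3R26K-eCFP (arginine 26 replaced by lysine, here R26K), with 2 libraries each, and eggs were assigned by their colour in a confocal microscope. Each form had its own fluorescent tag, so tag and substitution cannot be told apart. How many eggs or females stood behind a library, and whether the eggs' own H3.3 genes were intact, is not stated in the labels.

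An MII egg is held in metaphase of its second meiotic division until fertilization. Aurora kinases are serine/threonine kinases of cell division. Aurora A (Aurka) works at the spindle poles, where Tpx2 binds and activates it, and Plk1, the main Polo kinase, works at poles, kinetochores and the midzone. Aurora B (Aurkb) is the catalytic subunit of the chromosomal passenger complex, which corrects faulty attachments of chromosomes to the spindle. Incenp is the scaffold of that complex, and survivin (Birc5) and borealin (Cdca8) bring it to the centromere. Aurora C (Aurkc) is a close relative of Aurora B found mainly in germ cells and can take its place in the complex. An egg makes almost no new RNA, so the levels below are of stored messenger RNA, captured by its poly(A) tail.

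Depth was 10803477 to 12748821 counts per library for H3.3 and K27R, and higher for R26K (33786225 and 39603440). Of 12 egg markers 11 had counts in every library, with summed levels of 46294 to 63303 CPM (counts scaled to a common library size), and Oog1 had none. Libraries differed in the number of genes with a count, from 7392, 7405 and 7590 (H3.3 replicate 2, K27R replicate 2 and H3.3 replicate 1) to 10715 in K27R replicate 1 and 12112 and 12135 in R26K. Of 18 markers of cumulus and granulosa cells, 4 to 15 had a count, with summed levels of 964 and 1753 CPM with H3.3, 1945 and 1416 with K27R and 2038 and 2018 with R26K. Serpine2 gave most of each sum, and the other 17 summed to 24.4 and 513 CPM with H3.3, 293 and 23.0 with K27R and 127 and 207 with R26K. Of 10 markers of blood and stroma, 1 to 5 had a count, with sums of 26.98 to 163 CPM that came mostly from Pecam1. A list of 5 genes of dividing cells, which eggs also express, summed to 379 and 458 CPM with H3.3, 406 and 389 with K27R and 1506 and 1149 with R26K. The higher R26K sums came from 2 of the 5, Ccna2 (683 and 544 CPM with R26K, 109 and 30.5 with H3.3) and Mcm2 (645 and 461 against 78.8 and 119). Mki67 (35.4 and 26.96 with R26K, 45.4 and 68.7 with H3.3) and Pcna (88.3 and 78.8 against 106 and 172) were lower in both R26K libraries than in both H3.3 libraries, and Top2a overlapped. A group difference in bulk RNA could reflect fewer cells of a kind or less RNA per cell, and these cannot be told apart.

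The 3 Auroras and Plk1 share a stretch of the kinase domain, the activation segment, with a threonine whose phosphorylation switches the kinase on. The coding bases of that segment are shown because they show how far 50-base reads can tell the relatives apart; the capitals mark the codon of the activating threonine (GENCODE M21 transcripts, mm10).

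Aurka: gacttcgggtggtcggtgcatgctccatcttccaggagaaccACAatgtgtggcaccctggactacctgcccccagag
Aurkb: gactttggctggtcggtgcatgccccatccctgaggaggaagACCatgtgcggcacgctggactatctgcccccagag
Aurkc: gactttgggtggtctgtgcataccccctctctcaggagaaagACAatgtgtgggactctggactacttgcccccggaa
Plk1: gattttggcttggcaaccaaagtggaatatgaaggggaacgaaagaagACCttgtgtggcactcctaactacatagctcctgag

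The Aurka and Aurkb segments were identical at 64 of 78 bases, as were those of Aurka and Aurkc, and those of Aurkb and Aurkc at 63 of 78. Over the whole coding sequence Aurkb and Aurkc were identical at 72.2% of aligned bases, Aurka and Aurkb at 67.0% and Aurka and Aurkc at 66.9%. The longest run of bases that 2 Aurora transcripts shared was 25, between Aurkb and Aurkc. No 50-base window of Aurka or Aurkb matched any other annotated gene, so their reads were distinct from those of the other Auroras. Aurkc was different: 914 of its 1667 windows (54.8%) also occurred in 1 or more of 10 annotated pseudogenes, of which Gm12463 alone shared 40.6%. None of the 10 had a row in the table, and the sources used here do not say how reads with several matches were counted, so the level of Aurkc is less certain than that of the others. Plk1 shared 10.4% of its windows with a pseudogene (Plk-ps1) and an overlapping antisense model (Gm44985), and the other members shared at most 2.93%. Exons of Cdca8 overlapped those of 9930104L06Rik on the other strand, which had 0 to 277 counts per library against 11841 to 32693 for Cdca8.

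On mm10 the genes lie on chromosome 2 from 172356190 to 172370535 (Aurka) and from 152847964 to 152895321 (Tpx2), on chromosome 11 from 69045647 to 69051664 (Aurkb) and from 117849251 to 117855743 (Birc5), and on chromosome 7 from 6995300 to 7003091 (Aurkc) and from 122159439 to 122169873 (Plk1). Cdca8 lies on chromosome 4 from 124918465 to 124939311 and Incenp on chromosome 19 from 9872296 to 9899551. The counts cover all exons of a gene, coding and untranslated.

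Stored egg messages are controlled through their 3′ ends, where a cytoplasmic polyadenylation element near the polyadenylation signal allows the tail to be lengthened during maturation. The letters of that element (TTTTAT or TTTTAAT, transcript strand) occurred in the last 100 bases of 3 of the 8 principal transcripts, the 3 Auroras, and in 21.3% of 9331 tested genes with a 3′ untranslated region of at least that length. The element and a signal (AATAAA or ATTAAA) both occurred in those bases in 18.1% of the 9331 genes. In Aurkb and Aurkc the element stood before a signal, as shown with both in capitals.

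Aurkb: agaacaacaTTTTATAATAAAgtcttaaat
Aurkc: ctcTTTTATgaagtgatgttaATTAAAact

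In Aurkb the element directly preceded the signal, and in Aurkc 12 bases lay between them. Aurka had the element but neither signal within those 100 bases, and the other 5 had a signal but no element. A match of letters is a description and was not tested as a site.

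The promoters of Aurka, Aurkc, Birc5 and Plk1 were read from the RefSeq table (GRCm38.p6, the same assembly as mm10). The cell cycle homology region (TTTGAA, either strand) is a motif of genes expressed late in the cell cycle. Its letters occurred in those of Aurka (chr2:172370521-172370820, minus strand) and Plk1 (chr7:122159185-122159484, plus strand), and in 17.9% of all 32851 promoters of 300 bases. The bases around the motif are shown with it in capitals.

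Aurka: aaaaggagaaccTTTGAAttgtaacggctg
Plk1: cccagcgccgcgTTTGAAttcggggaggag

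In both the motif lay on the gene's own strand, 32 bases after the RefSeq start in Aurka and 30 bases after the RefSeq start in Plk1. The gene bounds given above are from GENCODE and start elsewhere, so these distances hold for RefSeq only. The promoters of Aurkc and Birc5 did not hold these letters.

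The passenger complex subunits were stored at very different levels. Levels of different genes are compared per kilobase of the principal transcript. Cdca8 was the highest of the 8 genes in all 6 libraries, at 456 to 798 CPM per kilobase, and its range did not overlap that of Birc5 (225 to 383), the next in order of the median. Plk1 (93.0 to 278), Aurka (54.2 to 137), Aurkc (51.7 to 263) and Tpx2 (83.1 to 119) followed with overlapping ranges. Birc5 was above Plk1 in 5 of 6 libraries, Plk1 above Aurka in 5, Aurka above Aurkc in 4 and Aurkc above Tpx2 in 3, so the order within this middle group is not settled. Aurkb (0 to 13.3) and Incenp (0 to 27.9) came last and overlapped each other, and both were below the other 6 genes in every library. This order depended on the length used. Per kilobase of all annotated exons, Plk1 was above Cdca8 in K27R replicate 1 (190 against 186). The same held in R26K replicate 1 (278 against 171) and R26K replicate 2 (227 against 143). By the median on that scale Cdca8 was still the highest, followed by Plk1 and Tpx2. Birc5, whose exons include a much longer transcript, was sixth.

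**Figure D1:**
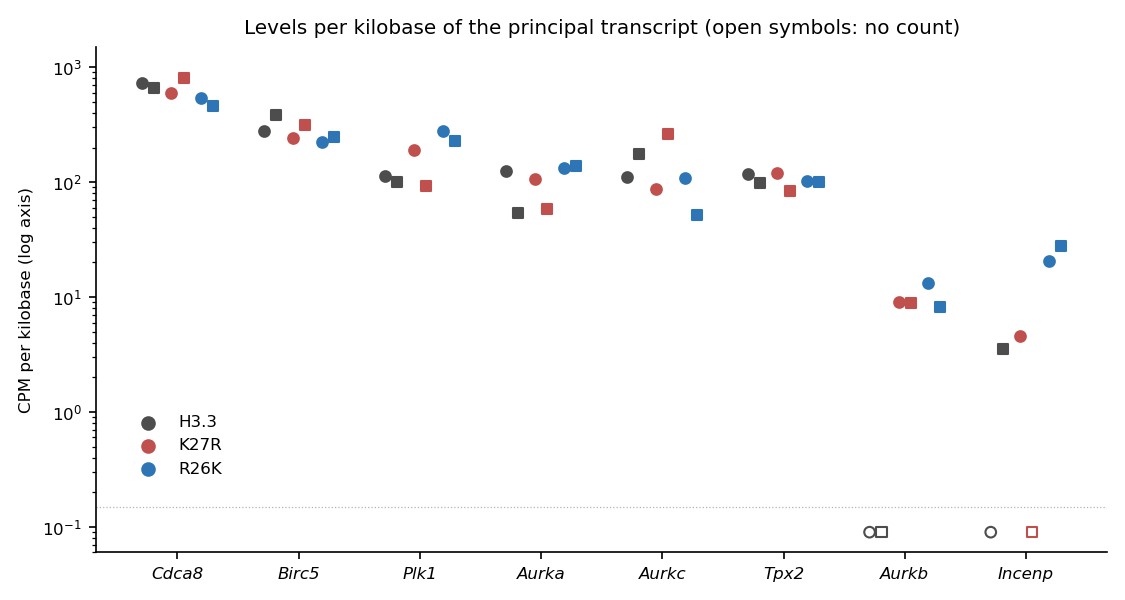
Level of each gene per kilobase of its principal transcript (log axis) in the 6 libraries, ordered by the median, with circles for replicate 1, squares for replicate 2 and colours for the groups. Cdca8 sits highest at 456 to 798 CPM per kilobase, Aurkb and Incenp lowest, and open symbols under the dotted line mark libraries without a count.

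Within the complex, Cdca8 made up 54.1% to 65.2% of the summed level per kilobase of Aurkb, Aurkc, Incenp, Birc5 and Cdca8, and Birc5 22.6% to 31.4%. Incenp, the scaffold that holds the kinase, made up at most 3.52%. The kinase share was mostly Aurkc, 6.53% to 19.0%, against at most 1.46% for Aurkb. These shares depended on the length used. Per kilobase of all exons Cdca8 made up 46.2% to 58.7%, Aurkc 14.1% to 36.7%, Birc5 16.0% to 24.9%, Incenp at most 7.499% and Aurkb at most 2.59%, and Aurkc was above Birc5 in 4 of 6 libraries.

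Between the groups, none of the 8 members passed the threshold of 0.05 on the adjusted p (edgeR quasi-likelihood fit, Benjamini-Hochberg over all tested genes) in any of the 3 comparisons. Of all tested genes, 0.619% were called between R26K and H3.3, 0% between K27R and H3.3 and 0.375% between K27R and R26K. An unadjusted edgeR p under 0.05 was reached by 2 members between R26K and H3.3 (Aurkb and Plk1, where 21.7% of all tested genes reached it), by 1 between K27R and H3.3 (Aurkb, 7.12%) and by 0 between K27R and R26K (13.2%). DESeq2, the other tool run, called Aurkb and Plk1 between R26K and H3.3 (15.4% of all tested genes), Aurkb between K27R and H3.3 (6.42%) and no member between K27R and R26K (7.12%). The comparisons with H3.3 share the same 2 H3.3 libraries and are not independent.

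Both R26K libraries lay outside both H3.3 libraries for 7 of the 8 members, 4 above and 3 below, where 60.1% of all tested genes did not overlap. For K27R against H3.3 this held for 1 member (25.6% of all tested genes), and for K27R against R26K for 4, 1 above and 3 below (53.8%). The median log2 fold change of the 8 was 0.26, 0.14 and -0.14 in the order R26K against H3.3, K27R against H3.3 and K27R against R26K. Over all tested genes it was 0.66, 0.12 and -0.32 (0.068 in place of 0.12 with genes that had no count in a group set at their bound). These medians over all genes depended on the filter. When the filter was set at 10 CPM they were 0.069, 0.016 and -0.076. Whether the members lay below or above other genes in R26K against H3.3 thus depended on which genes were kept.

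**Figure D2:**
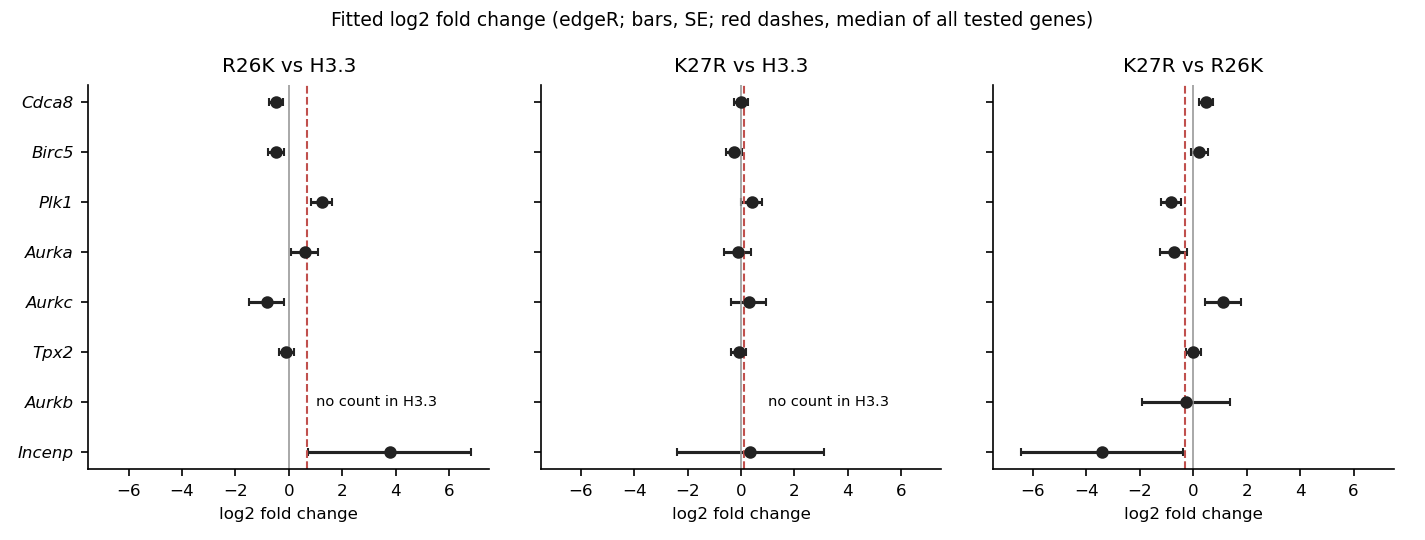
Fitted log2 fold change of each member (points) with its SE (bars) in the 3 comparisons, with a grey line at 0 and red dashes at the median of all tested genes. Aurkb is not drawn where H3.3 had no count, and Incenp has the widest bars because it had no count in 1 library of H3.3 and 1 of K27R.

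Aurkb was without a count in both H3.3 libraries and was found at 17.6 and 17.3 CPM with K27R and at 25.999 and 16.0 CPM with R26K. Thus all 4 libraries with a mutated form had it and neither H3.3 library did, while K27R and R26K overlapped. With a floor of 3 counts per H3.3 library (0.230 and 0.255 CPM), Aurkb was at least 86.7-fold higher in R26K and at least 71.9-fold higher in K27R, bounds that cover counting error only because amplified reads are not independent molecules. The edgeR adjusted p was 0.160 for R26K and 0.522 for K27R. The adjusted p of DESeq2 was 1.67e-05 and 5.20e-05, while edgeR under the other settings gave adjusted p of 0.0705 to 0.797 for R26K and 0.137 to 1 for K27R. A count of 0 was common in these libraries: of 2257 tested genes that averaged 10 to 30 CPM in the other 4 libraries, bounds chosen after the values of Aurkb were seen, 13.2% were at 0 in both H3.3 libraries. That share did not ask for a count in each of the other 4, as Aurkb had. Between K27R and R26K the log2 fold change was -0.27 ± 1.66 (SE, edgeR adjusted p = 1).

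Aurka was at 238 and 103 CPM with H3.3, 201 and 110 with K27R and 255 and 262 with R26K. The R26K libraries were close to each other (258 ± 4.43 CPM, SD, n = 2) and above the higher library of each other group, by little for H3.3. Replicates differed 2.31-fold in H3.3 and 1.83-fold in K27R. The log2 fold change was 0.60 ± 0.51 (SE) in R26K and -0.13 ± 0.51 in K27R against H3.3, and -0.73 ± 0.51 between K27R and R26K (edgeR adjusted p = 0.551, 1 and 0.721). Corrected for GC content and length, its value in R26K against H3.3 was -0.26.

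Aurkc was at 127 and 202 CPM with H3.3, 100 and 303 with K27R and 126 and 59.7 with R26K. Both R26K libraries were below both H3.3 libraries, by little for the nearest pair, and K27R spanned the whole H3.3 range. The log2 fold change was -0.83 ± 0.66 (SE) in R26K and 0.29 ± 0.66 in K27R against H3.3, and 1.12 ± 0.66 between K27R and R26K (edgeR adjusted p = 0.519, 0.980 and 0.612). Replicates differed 3.02-fold in K27R, more than the group means did.

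**Figure D3:**
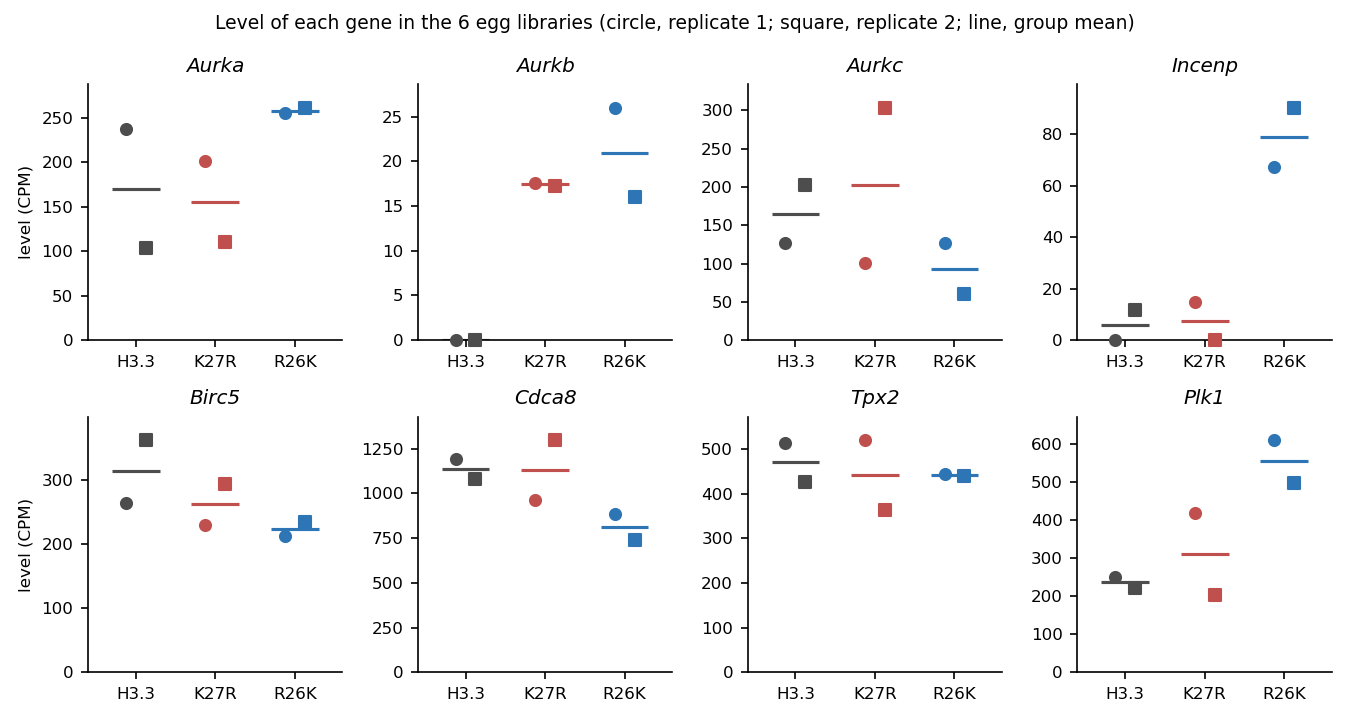
Level of each of the 8 genes in CPM (axes from 0) in the 2 libraries of each group, with circles for replicate 1, squares for replicate 2 and lines for group means. Plk1 and Incenp have both R26K points above the other 4 and Aurkb has both H3.3 points at 0, whereas Aurka, Aurkc and Tpx2 vary as much within a group as between groups.

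The balance of Aurora transcripts varied between replicates by as much as between groups. As shares of the summed level per kilobase of the 3 Auroras, Aurkc made up 46.9% and 76.4% with H3.3, 43.1% and 79.7% with K27R and 42.6% and 26.2% with R26K. Aurka made up 53.1% and 23.6%, 52.4% and 17.6%, and 52.2% and 69.6%. Replicate 1 of each group thus had nearly the same makeup, with slightly more Aurka than Aurkc, and the replicate 2 libraries departed from it in both directions. The ratio of Aurkc to Aurka per kilobase was 0.882, 0.823 and 0.816 in the replicate 1 libraries of H3.3, K27R and R26K, and 3.24, 4.54 and 0.377 in the replicate 2 libraries. Whether a replicate number ties libraries of different groups together is not stated in the labels. Aurkb made up at most 5.19%. In H3.3 it had 0 of 4774 and 0 of 3600 Aurora counts, which allows a share of up to 0.0628% and 0.0833% (3 counts of the total). Amplified reads are not independent molecules, so these limits and the intervals that follow cover counting error only. The 95% Wilson intervals of the shares of raw counts were at most 3.09 percentage points wide, so the difference between replicates was beyond counting error. The pseudogenes that share bases with Aurkc were not counted separately, and their part in its share was not tested.

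**Figure D4:**
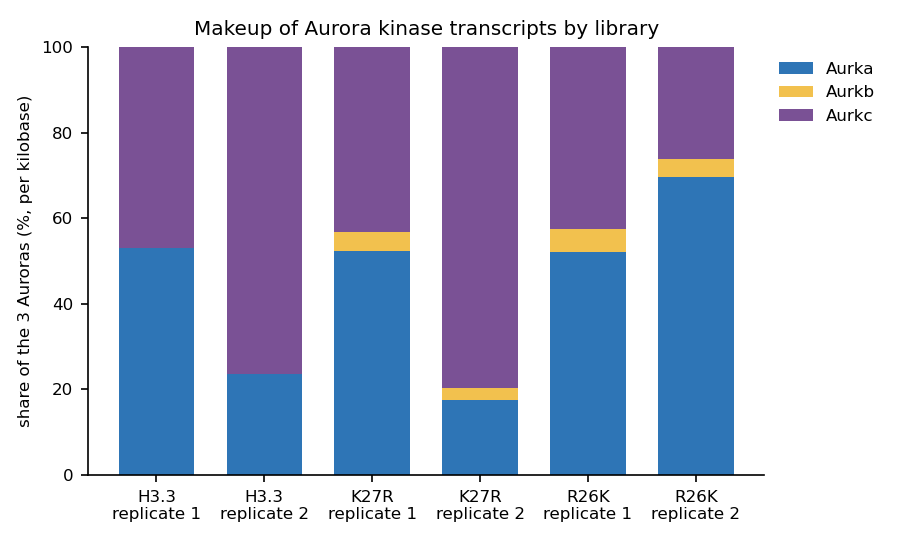
Stacked bars of the share of Aurka, Aurkb and Aurkc in their summed level per kilobase (percent) in each library. Aurkc is 42.6% to 46.9% in the 3 replicate 1 libraries but 76.4%, 79.7% and 26.2% in the replicate 2 libraries, and Aurkb is missing from H3.3.

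Incenp was at 0 and 11.5 CPM with H3.3, at 14.7 and 0 with K27R and at 67.3 and 90.2 with R26K, in the order of replicates 1 and 2. Both R26K libraries were thus above the other 4, while H3.3 and K27R each had 1 library without a count. The log2 fold change was 3.77 ± 3.07 (SE) in R26K and 0.35 ± 2.75 in K27R against H3.3, and -3.42 ± 3.02 between K27R and R26K (edgeR adjusted p = 0.529, 1 and 0.856). Of 1357 tested genes that averaged 30 to 60 CPM in the other 4 libraries, bounds chosen after the values of Incenp were seen, 3.17% had no count in both H3.3 replicate 1 and K27R replicate 2.

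Birc5 was at 265 and 363 CPM with H3.3, 231 and 295 with K27R and 213 and 236 with R26K. Cdca8 was at 1190.3 and 1078 CPM with H3.3, 963 and 1298 with K27R and 886 and 741 with R26K. Both subunits had both R26K libraries below both H3.3 libraries, and K27R overlapped H3.3. For R26K against H3.3 the log2 fold change was -0.48 ± 0.31 (SE) for Birc5 and -0.48 ± 0.25 for Cdca8 (edgeR adjusted p = 0.394 and 0.292). For K27R against H3.3 it was -0.26 ± 0.31 and -0.0050 ± 0.25 (adjusted p = 0.875 and 1, edgeR). The sign of the latter changed with the setting. Between K27R and R26K it was 0.23 ± 0.31 and 0.47 ± 0.25 (edgeR adjusted p = 0.978 and 0.526). With the correction for GC content and length the value of Cdca8 in R26K against H3.3 was -1.45 (edgeR adjusted p = 0.104).

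Tpx2 was the steadiest of the 8, at 515 and 426 CPM with H3.3, 520 and 363 with K27R and 445 and 439 with R26K. The highest library exceeded the lowest by 1.43-fold, and all 3 groups overlapped. Its log2 fold change was -0.09 ± 0.28 (SE) in R26K and in K27R against H3.3, and -0.0023 ± 0.28 between K27R and R26K (edgeR adjusted p = 0.914, 0.995 and 1). H3.3 replicate 2 and K27R replicate 2 had the least Tpx2 and also the least Aurka, its partner, which spanned 2.53-fold. With the correction for GC content and length the value of Tpx2 in R26K against H3.3 was -0.83 (edgeR adjusted p = 0.273).

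Plk1 was at 251 and 223 CPM with H3.3, 418 and 205 with K27R and 611 and 499 with R26K. Both R26K libraries were above the other 4, and K27R replicate 1 stood between. The log2 fold change was 1.23 ± 0.39 (SE) in R26K and 0.40 ± 0.39 in K27R against H3.3, and -0.83 ± 0.39 between K27R and R26K (edgeR adjusted p = 0.213, 0.803 and 0.449). DESeq2 gave an adjusted p of 0.0446 for R26K against H3.3. With the correction for GC content and length the direction turned, to -0.48 ± 0.28 (edgeR adjusted p = 0.383). Plk1 had the highest GC content of the 8 principal transcripts, 56.0%, against 47.8% to 54.5% for the others. Of the 5 dividing-cell genes given above, Ccna2 and Mcm2 were likewise highest in R26K, Mki67 and Pcna were lower there than in H3.3 and Top2a overlapped, and their part in this result was not tested.

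For each member the genes of mean at least 50 CPM with the most similar profile were named by the root mean square difference of their centred log2(CPM + 1) values over the 6 libraries, among 2851 genes. The values describe these libraries, whose depth and gene detection all genes share. Cdca8 was closest to Mrpl21 (0.071) and Dnttip2 (0.082), Tpx2 to Usp7 (0.089) and Psen2 (0.103), Aurka to Atl2 (0.090) and Edrf1 (0.141), and Birc5 to D6Ertd474e (0.091) and Mphosph8 (0.092). Plk1 was closest to Slc45a3 (0.162) and Accsl (0.200), and Aurkc to Zcchc10 (0.261) and Mmp2 (0.273). Aurkb (Zfp212 at 0.434, Unc5a at 0.597) and Incenp (Abhd17c at 0.706, Pias4 at 0.743) had the largest differences. Both had means (12.8 and 30.6 CPM) under the 50 CPM asked of the genes searched, and both had libraries without a count. The measure is not scaled by a gene's own spread, so these differences cannot tell whether a gene with a like pattern exists. Members themselves were left out of the search.

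Other genes of the pathway were taken from 5 lists with 53 genes in all, 50 of them tested (Ajuba, Plk2 and Plk5 had too few counts). None passed the edgeR test in any comparison. An unadjusted p under 0.05 was reached by 8 higher and 3 lower genes in R26K against H3.3, by 2 higher and 0 lower in K27R against H3.3, and by 1 higher and 5 lower in K27R against R26K. DESeq2 called 7 higher (Aurkaip1, Cdc20, Gsg2, Pkmyt1, Plk3, Ube2s and Xpo1) and 3 lower (Cdc27, Cenpe and Ttk) in R26K against H3.3. It called 2 higher (Aurkaip1 and Xpo1) and 1 lower (Cdc25c) in K27R against H3.3. In K27R against R26K it called 0 higher and 3 lower (Cdc20, Cdc25c and Ube2s). Plk3 had counts only in R26K and Aurkaip1 had none in H3.3, so neither could have come out lower against H3.3. Cdc25c had counts only in H3.3 replicate 2 (27.2 CPM) and R26K replicate 2 (0.936 CPM). Each of its DESeq2 calls thus rested on a single library, and its groups overlapped. With edgeR its adjusted p was 0.532 in the former comparison and 0.804 in the latter. Names in these lists of DESeq2 calls go beyond the rule for named genes and were chosen after their values were seen. These shares are near or under those of all tested genes for the same rules given above, except for DESeq2 in R26K against H3.3 (10 of 50 against 15.4%).

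**Figure D5:**
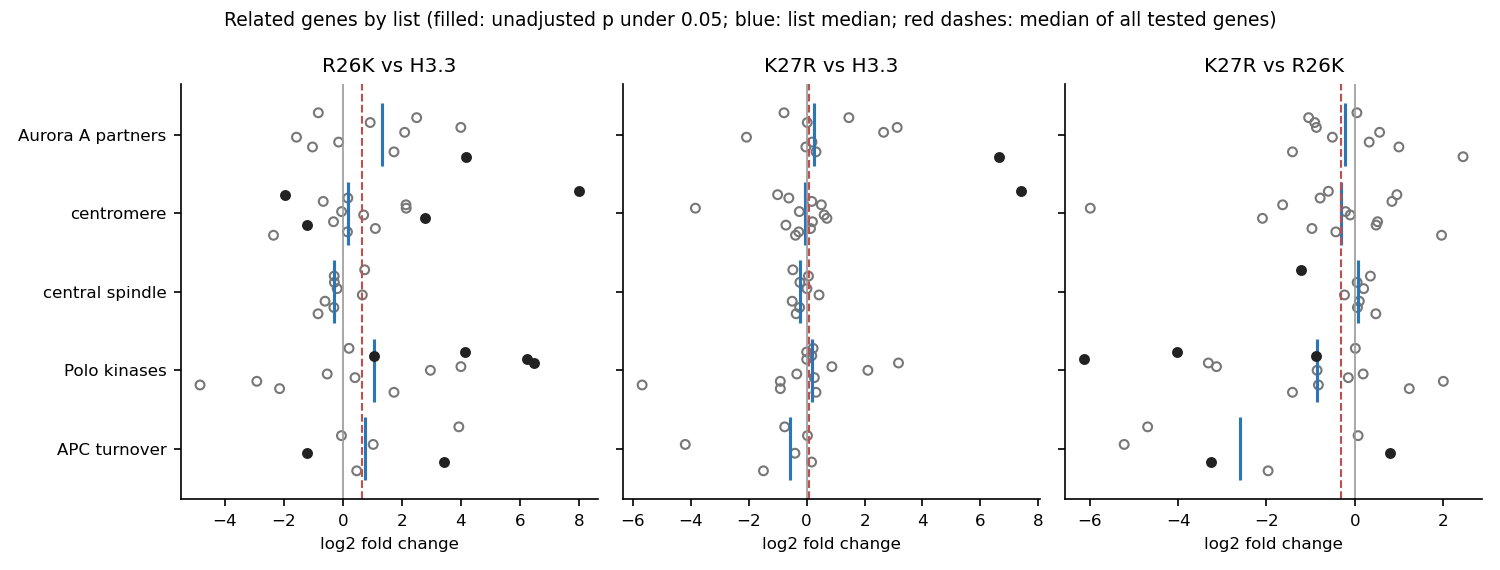
Log2 fold change of the tested genes of the 5 related lists (rows) in the 3 comparisons, filled where the unadjusted edgeR p was under 0.05, with a blue bar at the list median and red dashes at the median of all tested genes. Genes without a count in 1 of the 2 groups are drawn at their bound against 3 counts per library, and the central spindle list has no filled point in R26K against H3.3.

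Turnover through the anaphase-promoting complex held the 2 smallest p-values of all 5 lists in R26K against H3.3. Cdc20, the activator of that complex at anaphase, was at 47.3 and 51.9 CPM with H3.3, 95.03 and 16.5 with K27R and 561 and 497 with R26K. Both R26K libraries were far above the other 4, with a log2 fold change of 3.42 ± 0.81 (SE) against H3.3 (adjusted p = 0.138 with edgeR and 0.000218 with DESeq2) and -3.25 ± 0.80 between K27R and R26K (adjusted p = 0.217 with edgeR and 0.000557 with DESeq2). Cdc27, a core subunit and the most abundant of the list, was at 398 and 380 CPM with H3.3, 312 and 276 with K27R and 181 and 158 with R26K. It ran the other way, with both R26K libraries below the other 4 and -1.20 ± 0.27 against H3.3 (adjusted p = 0.127 with edgeR and 0.000336 with DESeq2). The median of the 6 genes was 0.75 in R26K and -0.58 in K27R against H3.3. For this list and those below, the medians over all tested genes were 0.66 and 0.12. They were 0.069 and 0.016 with the filter at 10 CPM.

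Of the genes of centromere recruitment and passenger targets, with a median of 0.16 in R26K and -0.06 in K27R over 14 genes, the 2 with the smallest p were lower in R26K. Cenpe, a kinetochore motor, was at 843 and 841 CPM with H3.3, 671 and 354 with K27R and 389 and 344 with R26K (-1.20 ± 0.35 against H3.3, adjusted p = 0.204 with edgeR and 0.00487 with DESeq2). Ttk, the checkpoint kinase Mps1, was at 409 and 164 CPM with H3.3, 205 and 80.1 with K27R and 71.8 and 75.6 with R26K (-1.96 ± 0.63 against H3.3, adjusted p = 0.213 with edgeR and 0.0170 with DESeq2). Gsg2, the kinase haspin that makes the histone H3 mark survivin binds, was chosen after its values were seen. It was at 55.6 and 15.4 CPM with H3.3, 95.6 and 19.6 with K27R and 220 and 271 with R26K (2.79 ± 0.95 against H3.3, adjusted p = 0.213 with edgeR and 0.0229 with DESeq2). Both R26K libraries were thus above the other 4, as for Incenp and Plk1, but such patterns were common. Of all 10667 tested genes, both R26K libraries were above both H3.3 libraries for 4784 and above both K27R libraries for 3871. How many were above all 4 was not counted. Dsn1, a kinetochore subunit and the most abundant of the list, overlapped between all groups at 733 to 1514 CPM.

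Among the Polo kinases and Plk1 partners, the median was 1.06 in R26K and 0.18 in K27R against H3.3 over 13 tested genes. Over all tested genes it was 0.66 and 0.12. Plk3 and Wee1 had counts only in R26K and passed the filter through that group alone, which fixed their direction. Plk4, the kinase of centriole duplication, was at 131 and 191 CPM with H3.3, 168 and 195 with K27R and 382 and 287 with R26K, and thus like Plk1 higher in both R26K libraries than in the other 4 (1.06 ± 0.35 against H3.3, adjusted p = 0.213 with edgeR and 0.0987 with DESeq2). Wee1, an inhibitory kinase of Cdk1, had no count in H3.3 or K27R and 4.01 and 4.62 CPM in R26K, the group with the deepest libraries. That is at least 17.8-fold above the H3.3 floor, a bound that covers counting error only. The edgeR adjusted p was 0.213 against H3.3, and DESeq2 gave none. As a gene kept by the filter only through R26K, Wee1 could not have come out lower there. Wee2, the oocyte relative of Wee1, was the most abundant of the list, at 658 to 866 CPM in all libraries.

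The partners of Aurora A had a median of 1.33 in R26K and 0.25 in K27R against H3.3 over 10 tested genes. That of all tested genes was 0.66 and 0.12. Aurkaip1 and Kif15 had no count in H3.3, so neither could have come out lower than H3.3. Aurkaip1, named for binding Aurora A, was at 0 in both H3.3 libraries, at 13.9 and 34.4 CPM with K27R and at 3.42 and 5.40 with R26K (DESeq2 adjusted p = 0.00395 in R26K and 0.000123 in K27R against H3.3, edgeR 0.213 and 0.522). Aurkb had the same presence and absence by group, but an absence from H3.3 was common. Of all 10667 tested genes, 20.7% were at 0 in both H3.3 libraries. How many of these had counts in all 4 other libraries was not counted. Numa1, a spindle pole protein, was at 28.1 and 3.82 CPM with H3.3, 43.2 and 44.4 with K27R and 83.7 and 97.2 with R26K (2.50 ± 1.06 in R26K against H3.3, adjusted p = 0.238 with edgeR and 0.0899 with DESeq2). Ckap5, a microtubule polymerase and the most abundant of the list, overlapped between all groups at 128 to 228 CPM.

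The central spindle genes, which act after anaphase, had a median of -0.29 in R26K and -0.24 in K27R against H3.3 over 8 genes. Racgap1 was at 90.3 and 82.8 CPM with H3.3, 57.1 and 67.3 with K27R and 118 and 171 with R26K, with no overlap between any groups and -1.22 ± 0.46 between K27R and R26K (edgeR adjusted p = 0.346). Anln was at 589 and 330.0 CPM with H3.3, 288 and 427 with K27R and 231 and 282 with R26K (edgeR adjusted p = 0.2502 for R26K against H3.3). Kif23, the midzone kinesin and the most abundant gene of the 5 lists on this scale of CPM per gene, overlapped between all groups at 1319 to 1784 CPM.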

How the data were processed

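The authors deposited raw counts by gene symbol, not normalized, and all 6 columns could be tied to a sample. The submitters' processing notes list featureCounts, TopHat2 2.1.0, cutadapt 1.9.1 and SAMtools 1.3, and the build mm10; the annotation, strand setting and treatment of multiple matches are not given there or in the labels. Per the labels' protocols, cDNA came from the SMARTer Ultra Low kit and libraries from the Nextera kit, which does not mark strand, read as single 50-base reads.

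The members and lists were chosen with earlier results of these data known. Levels are CPM after TMM scaling. Genes passing edgeR's filterByExpr were tested in R 4.3.3 with the quasi-likelihood functions of edgeR 4.0.16, two-sided, from a single model of the 6 libraries by group with 3 residual degrees of freedom and Benjamini-Hochberg adjustment over 10667 genes. SE was taken as the absolute log2 fold change over the root of F. Alternatives were DESeq2 1.42.0, other scalings and filters, only the groups compared, a replicate block, robust spread, a GC and length correction, and leaving out each library; levels per kilobase of all exons were added after seeing the data. Replicates are not tied to separate females in the labels, and the p-values then reflect only variation among these libraries, which may be technical. Lengths, GC content and sequences came from GENCODE M21 (mm10) and RefSeq (GRCm38.p6); levels per kilobase use the APPRIS principal transcript. Named were all members, and in each list up to 4 called genes or else the 2 with the smallest p, plus the most abundant, and the 2 genes most like each member. The common dispersion of the fit, its measure of spread between replicates, was 1.634. The fit was also run on simulated counts with known changes, and how many of those it called is not reported here. Promoters of 4 of the 8 members are reported here.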

Additional observations from a re-analysis of the deposited data

How the results depend on the processing

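With 2 libraries per group, depth limits counting error to a few percent for the abundant members, and the spread between libraries sets the precision. Of 360 refits of a member's log2 fold change, 325 kept their direction and side of the threshold, 32 changed sign and 3 passed the threshold, all 3 with DESeq2 (Aurkb in R26K and K27R and Plk1 in R26K, against H3.3). DESeq2 thus called 2, 1 and 0 members in R26K against H3.3, K27R against H3.3 and K27R against R26K, and 10, 3 and 3 of the other pathway genes. Without a filter 1 pathway gene, Cdc20, was called in R26K against H3.3. With the replicate number as a block 0 members were called in every comparison, and 1 pathway gene, Cdc20, in R26K against H3.3 and in K27R against R26K. Same-numbered libraries did not deviate together (correlations of 0.065, -0.019 and 0.0083 over 2857 genes), so no expression shift shared by number was seen. This cannot tell whether same-numbered libraries were prepared together, which the labels do not state.

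With GC and length correction (95.5% of tested genes had values) Aurka (-0.26) and Plk1 (-0.48) in R26K against H3.3, Incenp (-0.43) in K27R against H3.3, and Aurkb (0.58), Plk1 (0.62) and Tpx2 (0.36) in K27R against R26K changed sign; the cause was not tested. That correction moved the median of all genes by -0.48, -0.11 and 0.33 in the 3 comparisons, and upper-quartile scaling moved it by -0.20 in R26K against H3.3 and 0.22 in K27R against R26K. Scaling moved 6 of 48 group mean levels of members by more than 1 SD. Cdca8 in K27R against H3.3 was 0.031 with upper-quartile scaling, 0.0046 with a filter of 10 CPM and 0.0091 in a fit of those groups. Tpx2 in K27R against R26K was 0.026 with DESeq2 and with relative log (RLE) scaling, 0.22 with upper-quartile scaling, 0.0073 without a filter, 0.017 with a filter of 10 CPM and 0.031 in a fit of those groups.

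Leaving out each library in turn, where a lone library is assumed to vary like the other groups, called 0 members each time, and 0 to 2 pathway genes in R26K against H3.3 (Bora and Rcc2 without H3.3 replicate 1, Cdc20 without R26K replicate 1 or R26K replicate 2) and 0 to 1 in K27R against R26K (Cdc20, without either R26K library). In R26K against H3.3 Tpx2 ranged from -0.22 to 0.045, and without a change of sign Aurka ranged from 0.12 to 1.32, Aurkc from -1.49 to -0.39, Incenp from 2.76 to 13.71, Birc5 from -0.70 to -0.24, Cdca8 from -0.64 to -0.36 and Plk1 from 1.05 to 1.37. In K27R against H3.3 Aurka ranged from -0.63 to 0.60, Aurkc from -0.71 to 0.88, Incenp from -9.93 to 10.28, Cdca8 from -0.24 to 0.19, Tpx2 from -0.38 to 0.14 and Plk1 from -0.21 to 0.82. In K27R against R26K Aurkb ranged from -0.58 to 0.15 and Tpx2 from -0.29 to 0.24, and without a change of sign Aurka from -1.23 to -0.36, Aurkc from 0.11 to 1.78, Incenp from -13.70 to -2.42, Birc5 from 0.043 to 0.39, Cdca8 from 0.24 to 0.67 and Plk1 from -1.44 to -0.41. The values of 13.71, 10.28, -9.93 and -13.70 for Incenp came without H3.3 replicate 2 or K27R replicate 1, which left a group with no count, so they are no bounds.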
